A study of Mus musculus with 6 samples.

Results

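The IL-6, gp130 and JAK–STAT3 genes described here were 10 mouse genes, Il6, Lif, Il6ra, Il6st, Osmr, Jak1, Jak2, Stat3, Socs3 and Cish, out of 21000 protein-coding genes with a curated RefSeq start site. A p65 ChIP–seq peak was assigned to one of them when the transcription start site (TSS) nearest to its midpoint was a start site of that gene. The assignment gave 29 of 8525 peaks in the adult list, 16 of 4169 in the aged/IgG control list and 21 of 6014 in the aged/anti-IL-17A/F list. Any other peak within 50 kb of a member's TSS was recorded as well.

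ChIP–seq sequences the DNA that an antibody recovers together with a chromatin protein, here p65, the NF-κB subunit encoded by Rela. The cells were epidermal cells released from skin of C57bl/6J mice with trypsin, in 3 groups. Adult mice were untreated, and aged mice, 73 weeks old at the start of treatment, had been injected intraperitoneally for 12 weeks with a control IgG (aged/IgG control) or with blocking antibodies against IL-17A and IL-17F (aged/anti-IL-17A/F). The comparison asks where p65 sits in epidermal cells of each group, and the material of 4 mice per group was merged into 1 peak list. No list has a replicate, so the values below have no error, no test between groups could be made, and differences are given as values only. In bulk chromatin, more cells with p65 at a site and more p65 per cell cannot be told apart.

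IL-6 family cytokines bind a specific receptor, such as IL-6Rα or OSMRβ, that signals together with the shared subunit gp130, the product of Il6st. The receptor-bound kinases JAK1 and JAK2 then phosphorylate STAT3, which enters the nucleus and activates target genes. SOCS3 is an induced inhibitor that closes this loop, and CISH belongs to the same family of inhibitors of cytokine receptor signalling. In epidermis, IL-6 and oncostatin M act on keratinocytes in wound repair and inflammation, and Il6 is a classical NF-κB target.

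Every peak name in the adult list, 8525 of 8525, began with "Treated_m", as did all 6014 names in the aged/anti-IL-17A/F list and 0 names in the aged/IgG control list. No peak (0) had identical start and end in adult and in aged/anti-IL-17A/F, so they are separate lists. This does not show which group each list came from, and groups were taken from the sample labels. Results that use the adult list are therefore given with the values of both aged lists. As a check of the labelled cells, 8, 5 and 7 of 8 keratinocyte genes had an assigned peak in the adult, the aged/IgG control and then the aged/anti-IL-17A/F list. Of 4 genes of other cell types (Cd3e, Ptprc, Col1a1 and Pecam1), 1, Pecam1, had a peak in each list. Over all protein-coding genes the shares were 23%, 12.9% and 17.4%, and the 1 of 4 is not below them. A p65 peak does not measure expression.

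The sequences under the peaks were searched for binding motifs, and a match does not show what p65 sat on. The 10-base κB consensus, the general binding motif of NF-κB dimers, was found in 18 places in the members' peaks, at 15 sites, and 12 of the 18 matches lay within 50 bp of a peak summit. The lines below give matches close to a summit in peaks of all 3 lists, with 10 bases on either side. They are on the strand of the motif, with the 10 matching bases in capitals. Coordinates are GRCm38 (mm10).
Il6st, chr13:112464371-112464400, plus strand, intron: gggctggcctGGGAATCCCCgcattccttc
Osmr, chr15:6872307-6872336, plus strand, intron: caggtcaactGGGGAACTCCtgtgactcat
Osmr, chr15:6909721-6909750, minus strand, intergenic: catcagaaaaGGGAGTTTCCatttctttca
Osmr, chr15:6914318-6914347, minus strand, intergenic: acatgcaaatGGGACTTTCCaatgtttcct
Jak1, chr4:101264923-101264952, minus strand, intron: cggccggggcGGGGATTTCCaggcggcggg
Jak2, chr19:29251435-29251464, plus strand, intergenic: gggctgccccGGGAATCTCCacgcgcgcct
Cish, chr9:107306320-107306349, plus strand, intergenic: ccctgctctgGGGATTTCCCcagccctgac
Cish, chr9:107313103-107313132, plus strand, intergenic: ataaagcctgGGGAAACCCCttggccacgc
These 8 matches lay in peaks of all 3 lists, between 2 and 30 bp from the nearest summit. The 18 matches had 16 different 10-base sequences. At Cish 9.7 kb and at Socs3 19.4 kb downstream of the TSS, 2 matches overlapped by 9 bases, and both of each pair are counted in the 18.

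The Il6 promoter is shown because the only Il6 peak, found in the adult list alone, covers its κB match. The line gives the 250 bases before the TSS on the plus strand, chr5:30012864-30013113, with the κB match in capitals.
Il6: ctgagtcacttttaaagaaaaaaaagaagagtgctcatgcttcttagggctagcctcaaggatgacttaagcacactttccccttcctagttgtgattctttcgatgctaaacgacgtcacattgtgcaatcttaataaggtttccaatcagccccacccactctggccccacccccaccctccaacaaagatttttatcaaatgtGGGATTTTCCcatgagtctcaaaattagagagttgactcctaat
The match began 44 bases upstream of the TSS, at chr5:30013070-30013079. Among the promoters of the 10 members, taken from 250 bases before to 50 bases after the TSS, Il6 alone held a κB match. Of 32851 RefSeq promoters of the same length, 4.51% held one.

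The STAT motif TTCNNNGAA is shown for the stretches where it recurred or overlapped a κB match. The matches are in capitals, on the plus strand.
Cish, chr9:107296654-107296683, at the TSS: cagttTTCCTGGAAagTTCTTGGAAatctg
Cish, chr9:107296762-107296791, 5′ UTR: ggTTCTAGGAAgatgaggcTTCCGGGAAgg
Il6ra, chr3:89888167-89888196, intron, STAT and κB joined: ttgtttacTTCTGGGAATTTCCacttaata
Jak1, chr4:101237131-101237160, intron, STAT and κB joined: ctctggaTTCTAGGAAAATCCCttctacaa
The Cish promoter held 2 STAT matches and the Socs3 promoter held 1, and the other 8 members' promoters held none, against 8.30% of all 32851 promoters with at least 1. In the Il6ra line the STAT and κB matches shared 5 bases, and in the Jak1 line they shared 4. A match describes these letters only and does not show that a protein bound there.

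Most of the members carried p65 peaks in every list, and Il6 and Socs3 were the members whose presence differed between lists. In adult, 9 of 10 members had an assigned peak, all but Lif, against 23% of the 21000 genes. In aged/IgG control, 7 of 10 had one, against 12.9% of all genes. In aged/anti-IL-17A/F, 8 of 10 had one, against 17.4%. Il6 had a peak in adult alone, and Socs3 had peaks in adult and aged/anti-IL-17A/F but not in aged/IgG control. The other 7 members, Il6ra, Il6st, Osmr, Jak1, Jak2, Stat3 and Cish, had peaks in all 3 lists.

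**Figure D1:**
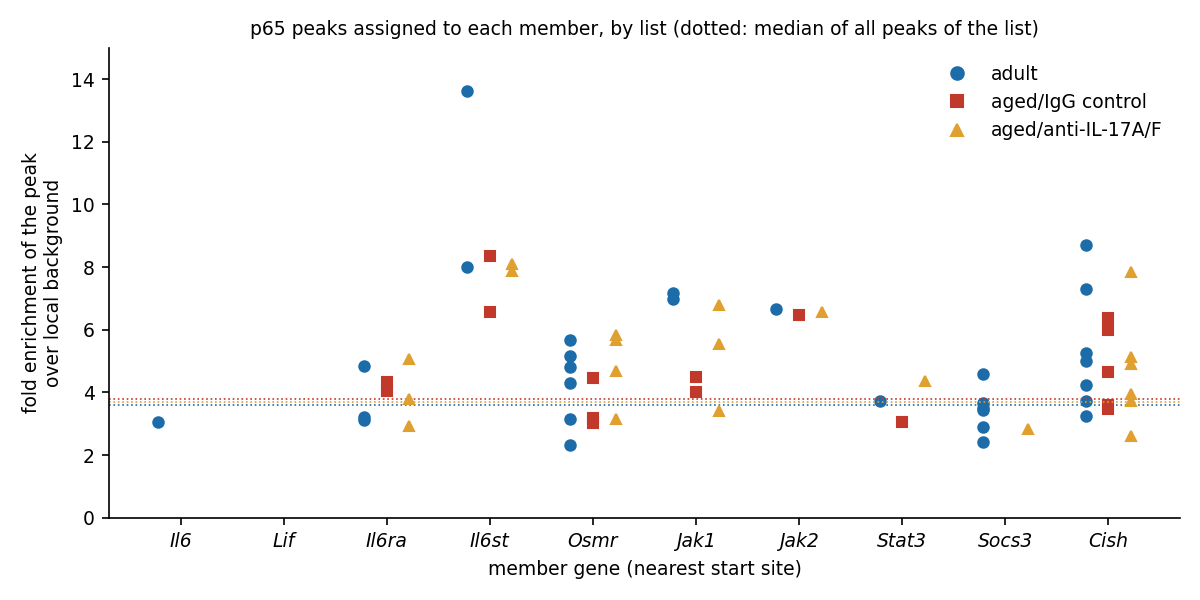
Fold enrichment over local background (vertical axis) of every p65 peak assigned to each member (horizontal axis) in adult (circles), aged/IgG control (squares) and aged/anti-IL-17A/F (triangles), with dotted lines at the median of all peaks of each list (3.60, 3.80 and 3.69). Il6st held the highest value, 13.6 in adult, Lif had no peak, Il6 had an adult peak only, and Socs3 had no aged/IgG control peak.

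Peak strength is given as the authors' fold enrichment, a ratio of the signal at the peak to the local background, and as its percentile, the share of peaks in the same list at or below that ratio. The members' peaks had a median fold enrichment of 4.30 in adult, 4.41 in aged/IgG control, with 4.91 in aged/anti-IL-17A/F, against 3.60, 3.80 and 3.69 for all peaks of those lists. Their median percentiles were 66.7, 65.2 and 74.2. In the top 10% of its list by fold enrichment were 5 member peaks in adult, 1 in aged/IgG control, with 3 in aged/anti-IL-17A/F. The members' peaks ranged from 2.32 to 13.6 in adult, so that they were neither uniformly strong nor uniformly weak.

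Of the ligands, Il6, which encodes interleukin 6, had 1 peak and it was weak. The adult peak spanned chr5:30013021-30013336, with its midpoint 64 bp downstream of the TSS in the 5′ UTR. Its fold enrichment was 3.07, rank 6049 of 8525 in the adult list and percentile 29.1, with a −log10 q of 9.35. Neither aged list had a peak there: the closest one lay 354 kb away in aged/IgG control and 113 kb away in aged/anti-IL-17A/F. Adult peaks of like strength, in the same 1 of 10 equal classes of the list by fold enrichment, were absent from aged/IgG control in 82.8% of cases and from aged/anti-IL-17A/F in 66.2%, so that absence was the common outcome for an adult peak of this strength. With each list reduced to its strongest 4169 peaks, the length of the shortest list, Il6 had no peak in any list. The κB match of the peak lay 197 bp from the summit, toward the upstream side.

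Lif, which encodes the gp130 cytokine leukaemia inhibitory factor, had no assigned peak in any list. The only peak within 50 kb of a Lif TSS was an intergenic one on chr11, 41.8 kb downstream in adult, whose nearest TSS was that of Gm11958. It was present in all 3 lists, at 4.65 in adult, 4.50 in aged/IgG control, with 4.08 in aged/anti-IL-17A/F. This peak held no κB match. The next peak out, 61.8 kb from Lif and nearest to Tbc1d10a, was outside the limit, at 4.04, 3.58 and 4.43 in the same order.

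Of the receptors, Il6st, which encodes gp130, had the strongest peak of all members. The TSS peak, chr13:112463703-112464729 over the 3 lists, had a fold enrichment of 13.6 in adult, 8.35 in aged/IgG control, with 7.88 in aged/anti-IL-17A/F. These values ranked 112 of 8525 in adult and 227 of 4169 in aged/IgG control, at percentiles 98.7 and 94.6, and stood at percentile 93.0 in aged/anti-IL-17A/F. The adult value was the high one, and both aged values lay close together. Its κB match, the Il6st line above, was 6 bp from the nearest summit, and the summits of the 3 lists lay within 15 bp. The other Il6st site, 65.7 kb upstream of the TSS at chr13:112398057-112398721, had 8.0 in adult, 6.56 in aged/IgG control, with 8.11 in aged/anti-IL-17A/F. Here aged/IgG control was the low list. This distal site lay beyond 50 kb and contained no κB match.

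Osmr, which encodes the oncostatin M receptor subunit that pairs with gp130, had 6 peaks in adult, 3 in aged/IgG control, with 4 in aged/anti-IL-17A/F. The intronic site 2.0 kb downstream of the TSS had 5.69 in adult, 4.48 in aged/IgG control, with 3.14 in aged/anti-IL-17A/F. The upstream site at 35.4 kb had 4.30, 3.20 and 5.67, and the one at 40.0 kb had 5.18, 3.04 and 4.69. The order of the lists thus differed from site to site within this gene, with aged/anti-IL-17A/F lowest in the intron and aged/IgG control lowest at both upstream sites. All 3 of these sites held a κB match between 2 and 6 bp from a summit. The Osmr promoter had 2 adult peaks, of 4.82 and 2.32, and 1 aged/anti-IL-17A/F peak of 5.84, and none in aged/IgG control, whose closest peak to the weaker adult peak lay 1.75 kb away. Of all adult peaks in the strength class of the stronger one, 25.8% were absent from aged/IgG control, and of those in the class of the weaker one, 86.7%. The stronger promoter peak stood at percentile 74.5 in adult and 83.1 in aged/anti-IL-17A/F. A further site 79.0 kb upstream was present in adult alone, at 3.14.

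Il6ra, which encodes the IL-6 binding subunit, had 3 peaks in adult, 2 in aged/IgG control, with 3 in aged/anti-IL-17A/F. The intronic site 25.1 kb downstream of the TSS had 3.23 in adult, 4.05 in aged/IgG control, with 5.07 in aged/anti-IL-17A/F. It was the only member site of those in all 3 lists where adult was below aged/IgG control. The site 7.0 kb downstream had 4.86, 4.34 and 3.79, the opposite order. The first of these sites held the joined STAT and κB matches of the Il6ra line, and there the summits were up to 197 bp apart between lists, the widest spread among the shared member sites. A peak at the Il6ra TSS was found in aged/anti-IL-17A/F alone, at 2.93 and percentile 20.1, and one 40.7 kb downstream in adult alone, at 3.14.

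**Figure D2:**
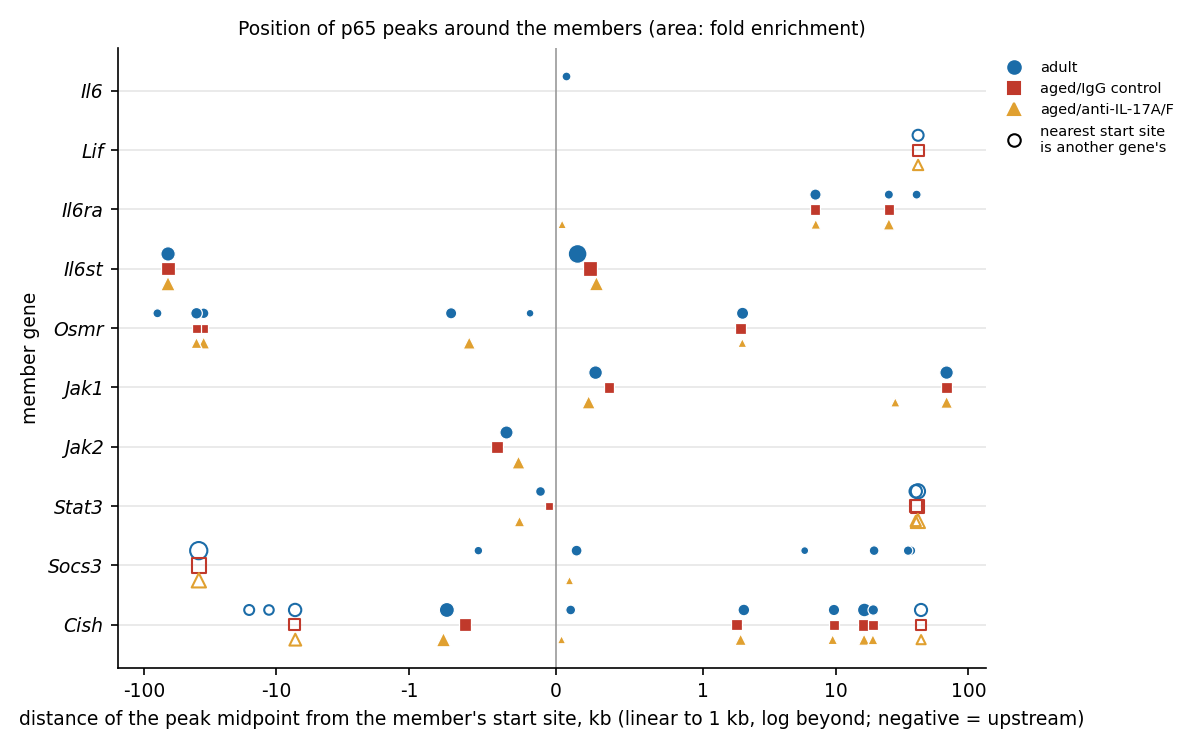
Position of each p65 peak midpoint relative to the member's TSS (horizontal axis in kb, linear to 1 kb and logarithmic beyond, negative values upstream) for the 10 members in adult (circles), aged/IgG control (squares) and aged/anti-IL-17A/F (triangles), with symbol area proportional to fold enrichment. Open symbols are peaks within 50 kb whose nearest TSS belongs to another gene, and Lif has open symbols only.

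Both Janus kinase genes carried p65 at their start sites in every list. Jak2 had 1 peak per list, with midpoints 259 to 402 bp upstream of the TSS, at 6.67 in adult, 6.47 in aged/IgG control, with 6.57 in aged/anti-IL-17A/F. These were the most even values of the 16 member sites found in all lists, at percentiles 88.0, 87.7 and 87.9. The Jak1 TSS peak had 7.16 in adult, 4.02 in aged/IgG control, with 6.80 in aged/anti-IL-17A/F. The Jak1 intronic peak 68.5 kb downstream had 6.97, 4.48 and 5.54, so that aged/IgG control was the low list at both shared Jak1 sites. A further Jak1 site, 28.1 kb downstream and at percentile 40.7, was present in aged/anti-IL-17A/F alone, at 3.41, with the joined STAT and κB matches of the Jak1 line.

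Stat3, which encodes the transcription factor that the kinases activate, had 1 assigned peak per list, at the TSS, which was of middling strength in adult and aged/anti-IL-17A/F and weak in aged/IgG control. It reached 3.71 in adult, 3.04 in aged/IgG control, with 4.37 in aged/anti-IL-17A/F, at percentiles 53.8, 19.2 and 66.2. A κB match lay in the aged/IgG control peak alone, 589 bp from its summit. By −log10 q instead of fold enrichment the percentiles were 70.3, 34.6 and 71.6, the same order. Further peaks lay inside the gene: 2 intronic peaks, 41.6 kb and 40.1 kb downstream of the Stat3 TSS in adult, were nearer to the start of its neighbour Stat5a and were assigned to that gene. The more distal one had 7.78 in adult, 6.64 in aged/IgG control, with 7.70 in aged/anti-IL-17A/F and held 2 κB matches in each list. The other had 5.92, 5.12 and 4.05 and held none, and it was above the TSS peak in adult and aged/IgG control but below it in aged/anti-IL-17A/F. Assignment by nearest TSS therefore leaves the strongest p65 signal within the Stat3 gene body outside the member count.

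Of the inhibitors, Socs3, which encodes a feedback inhibitor of gp130 signalling, showed the largest difference in peak number. It had 6 peaks in adult, 0 in aged/IgG control, with 1 in aged/anti-IL-17A/F. The TSS peak had 4.58 in adult and 2.82 in aged/anti-IL-17A/F, at percentiles 71.4 and 16.1. The other 5 adult peaks were weaker. They lay 36.9, 35.1, 19.4 and 5.8 kb downstream, at 3.49, 3.44, 3.65 and 2.40, and 528 bp upstream of the TSS, at 2.88. The last of these was 96 bp from the aged/anti-IL-17A/F peak at the TSS. Adult peaks of the same strength class as the adult TSS peak were absent from aged/IgG control in 25.8% of cases. This peak lay near the lower end of its class, and in the next weaker class the share was 45.5%. Absence was thus the less frequent outcome in both classes, but not a rare one. In the strength classes of the other 5 adult peaks, 63.1% to 86.7% of all adult peaks were absent from aged/IgG control, and 41.8% to 73.1% from aged/anti-IL-17A/F. The lowest of these shares belong to the class of the peak at 19.4 kb. With each list reduced to its strongest 4169 peaks, Socs3 had a peak in adult alone. The nearest aged/IgG control peak to the TSS, 38.5 kb upstream in an intron of Pgs1, was strong in all lists, at 11.4 in adult, 7.82 in aged/IgG control, with 7.83 in aged/anti-IL-17A/F, and its nearest TSS was that of Mir6933.

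Cish, which encodes another SOCS family inhibitor, had the most peaks of any member, 7 in adult, 5 in aged/IgG control, with 6 in aged/anti-IL-17A/F. Among 4836 protein-coding genes with an adult peak the median was 1 peak per gene, and 33 genes (0.682%) had 7 or more, while 65 (1.34%) had 6 or more, as did Osmr and Socs3 beside Cish. In aged/IgG control, 27 of 2705 genes with a peak (0.998%) had 5 or more, the number of Cish. For aged/anti-IL-17A/F, 31 of 3648 (0.85%) had 6 or more. The strongest Cish peak lay 742 bp upstream of the TSS in adult, with 8.71 in adult, 6.37 in aged/IgG control, with 7.85 in aged/anti-IL-17A/F. It held no κB match in any list. A separate peak on the TSS had 3.72 in adult and 2.62 in aged/anti-IL-17A/F, and it covered the 4 STAT matches of both Cish lines above. In aged/IgG control there was a single peak of 1177 bp at this promoter, which ended upstream of the TSS.

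The downstream Cish sites followed one another over 20 kb. The intronic site at 2.0 kb had 5.25 in adult, 4.66 in aged/IgG control, with 5.13 in aged/anti-IL-17A/F, and the site at 9.7 kb had 5.01, 3.60 and 3.74. The site at 16.4 kb had 7.30, 5.98 and 4.91, and the last one, at 19.2 kb, had 4.25, 3.48 and 3.94. Adult was the highest list at each of these 4 sites. A further peak at 15.6 kb was present in adult alone, at 3.25. Within 50 kb of Cish, 3 adult peaks and 1 peak in each aged list were nearest to Mapkapk3, a kinase gene next to Cish, and 1 peak in each list was nearest to 6430571L13Rik, 43.9 kb away in adult. The Mapkapk3 start site peak had 5.85, 4.71 and 5.37, and the 6430571L13Rik peak had 5.63, 4.09 and 3.19. The other 2 adult peaks, at 3.80 and 3.49, lay in Mapkapk3 introns.

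With any peak within 50 kb counted, 10 of 10 members had one in adult, against 43.4% of all genes. In aged/IgG control 9 of 10 had one, against 27.5%. With aged/anti-IL-17A/F the number was also 9 of 10, against 35%. The exception in both aged lists was Il6.

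Merged over the lists, the members had 29 sites, of which 16 were present in all 3 lists, 9 in adult alone, 2 in adult and aged/anti-IL-17A/F, and 2 in aged/anti-IL-17A/F alone. No member site was present in aged/IgG control alone. The adult list was the longest, 45.5% of all its peaks were overlapped in aged/IgG control, and 93.3% of all aged/IgG control peaks were overlapped in adult, so a pattern of this kind is common to the lists as a whole. The 2 sites missing from aged/IgG control only were the Osmr promoter and the Socs3 TSS.

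The overlap of the adult member peaks with the aged lists was near that of all adult peaks of like strength. Of the 29 adult member peaks, 17 (58.6%) were overlapped by at least 1 bp in aged/IgG control, against 45.5% of all adult peaks, and 20 (69.0%) in aged/anti-IL-17A/F, against 60.4%. When each of the 29 peaks was given the share for all adult peaks of its own strength class, these shares added up to 16.6 peaks for aged/IgG control and 20.4 for aged/anti-IL-17A/F. The observed numbers were 17 and 20. Of the 16 aged/IgG control member peaks, 16 were overlapped in adult, against 93.3% of all peaks of that list, and 16 in aged/anti-IL-17A/F, against 86.6%. Of the 21 aged/anti-IL-17A/F member peaks, 19 were overlapped in adult, against 85.6%, and 17 (81.0%) in aged/IgG control, against 59.9%.

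**Figure D3:**
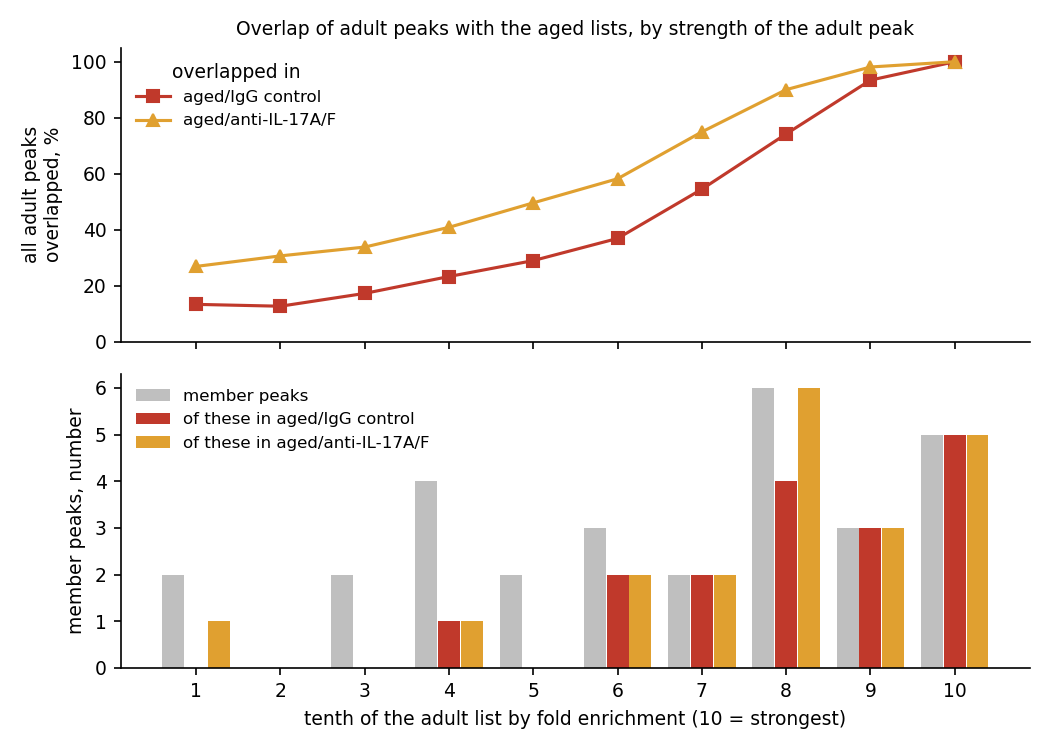
Adult peaks in 10 classes of fold enrichment (horizontal axis, 10 the strongest), with the percentage of all adult peaks overlapped in aged/IgG control (squares) and aged/anti-IL-17A/F (triangles) in the upper panel, and in the lower panel the number of member peaks and of those overlapped in either aged list (bars). The overlap of all adult peaks rose from 13.3% and 26.9% in the weakest class to 100% in the strongest, where all 5 member peaks were overlapped in both lists.

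At the 16 sites in all 3 lists, fold enrichment was higher in adult than in aged/IgG control at 15, against 80.2% of the 3508 aged/IgG control peaks present in all lists. The ratio of adult to aged/IgG control had a median of 1.24 at the member sites, with a range of 0.797 to 1.78, and a median of 1.25 at all 3508. Aged/anti-IL-17A/F exceeded aged/IgG control at 12 of the 16 sites, against 67% of the 3508. Here the median ratio was 1.18 at the member sites, with a range of 0.702 to 1.77, and 1.11 at all. The highest value of a site was in adult at 12 of the 16, in aged/anti-IL-17A/F at 4 and in aged/IgG control at 0. The same count was not made for all 3508 peaks. Both comparisons share the aged/IgG control list, and the shifts at the member sites were close to those of all shared peaks. The widest ratios of adult to aged/IgG control were at the Jak1 TSS (7.16 against 4.02), the Osmr site at 40.0 kb (5.18 against 3.04) and the Il6st TSS (13.6 against 8.35).

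**Figure D4:**
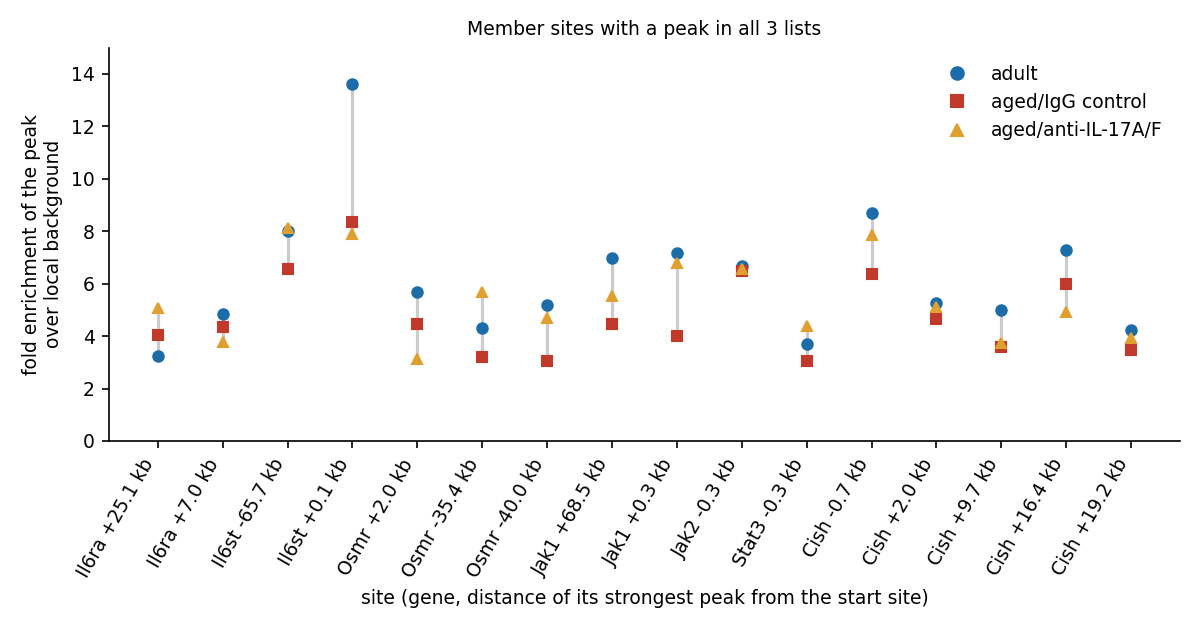
Fold enrichment over local background (vertical axis) at the 16 member sites with a peak in all 3 lists (horizontal axis, named by gene and distance from the TSS) for adult (circles), aged/IgG control (squares) and aged/anti-IL-17A/F (triangles), joined by a grey line per site. Adult is the highest at 12 sites and aged/anti-IL-17A/F at 4, a count not made for all peaks, and Jak2 has 3 nearly equal values (6.67, 6.47 and 6.57).

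Of the 3 motifs searched, the STAT motif had the widest gap between the members' peaks and the whole lists. TTCNNNGAA, which reads the same on both strands, occurred in 12 of 29 adult member peaks, against 13.4% of all adult peaks. It occurred in 8 of 16 aged/IgG control member peaks, against 14.1%, and in 11 of 21 aged/anti-IL-17A/F member peaks, against 13.9%. The members' peaks were wider than most, with medians of 512, 554 and 564 bp against 452, 431 and 444 bp. Among all peaks of like width the shares were 15%, 17.8% and 16.8%. The matches came from 6 members in all: 8 of the 17 were at Cish, 3 at Jak1, 2 each at Osmr and Socs3, and 1 each at Il6ra and Jak2. Peaks of 1 gene are not independent, the lists share these sites, and no test was made.

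The κB consensus occurred in 13 of 29 adult member peaks, against 34.9% of all adult peaks. It occurred in 10 of 16 aged/IgG control member peaks, against 44.7%, and in 11 of 21 in aged/anti-IL-17A/F, against 41.9%. In peaks of like width the shares were 40.0%, 54.4% and 49.9%, so that the members' 44.8%, 62.5% and 52.4% stood near those of other p65 peaks. The AP-1 motif TGANTCA occurred in 9 adult member peaks, against 22.9%, in 6 in aged/IgG control, against 23.8%, and in 7 in aged/anti-IL-17A/F, against 24.8%. Its shares in peaks of like width were 24.3%, 25.6% and 27.5%. Both strands were searched for every motif.

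**Figure D5:**
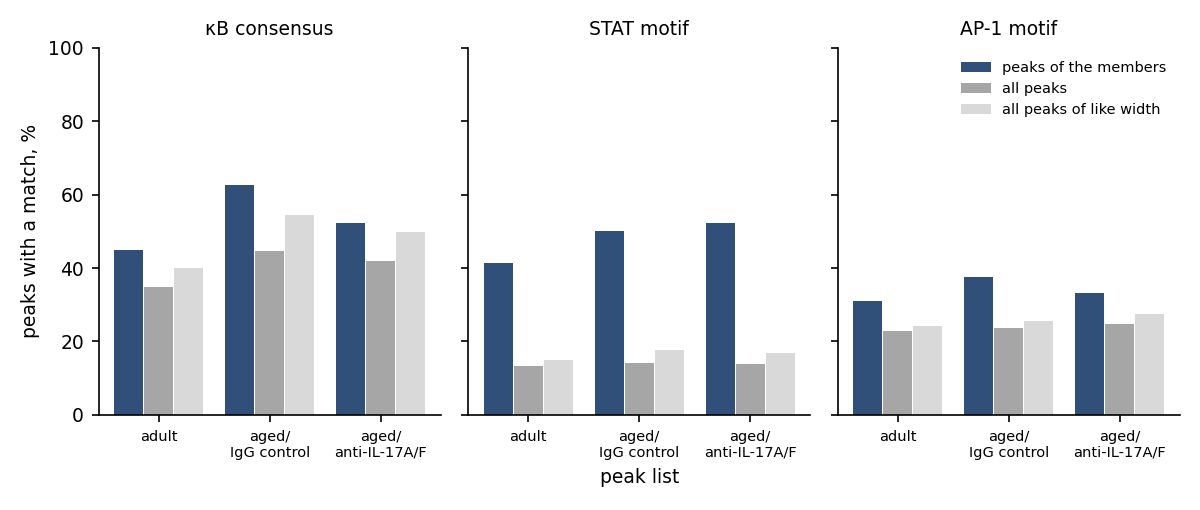
Percentage of peaks with at least 1 match (vertical axis) to the κB consensus, the STAT motif and the AP-1 motif in each list (horizontal axis), for the peaks of the members (dark bars), all peaks (grey) and all peaks of like width (light). For the STAT motif the members stand at 41.4%, 50% and 52.4% against 13.4%, 14.1% and 13.9% of all peaks, and for the κB consensus the 3 bars lie closer together.

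The wider pathway was represented by 74 further genes of cytokine, receptor, kinase, STAT, inhibitor and STAT3 target roles. Of these, 38 had an assigned peak in adult, 29 in aged/IgG control, with 37 in aged/anti-IL-17A/F, 28 of them in all 3 lists, and 33 had none in any. The 3 lists thus held 51.4%, 39.2% and 50% of the 74 genes, beside 23%, 12.9% and 17.4% of all protein-coding genes. Of 13 other ligand genes, 1 (7.69%) had a peak in each list, a share below that of all genes. A set of 13 genes is small, and this difference was not tested. Of 19 STAT3 target genes, 15, 14 and 16 had one, and of 15 other receptor genes 6, 6 and 7. Of 17 other inhibitors, 9 had a peak in adult, 5 in aged/IgG control, with 6 in aged/anti-IL-17A/F.

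A peak in the top 10% of at least 1 list was found at 16 of the 74 genes. The share of all genes with such a peak was not computed. Junb, which encodes an AP-1 subunit, had the strongest, at 19.7 in adult, 18.8 in aged/IgG control, with 14.5 in aged/anti-IL-17A/F. Bcl3, an NF-κB cofactor gene, had 14.9, 10.5 and 11.7, and Nfkbiz, which encodes the cofactor IκBζ, had 10.6, 5.58 and 8.34. The strongest Stat5a peak was the intronic Stat3 peak given above. In the same order of lists, the interferon receptor gene Ifnar1 had 14.5, 11.4 and 14.6, Ifngr1 had 8.38, 7.04 and 6.98, and Ifngr2 had 6.19, 6.33 and 7.90. Ifngr2 was in the top 10% in aged/anti-IL-17A/F alone, and its adult value was the lowest. The kinase gene Tyk2 had 8.87, 5.58 and 8.38. The phosphatase gene Ptpn1 had 10.2, 5.74 and 6.84, Ptpn2 had 8.59, 5.26 and 7.07, and the ubiquitin ligase gene Cbl had 11.1, 8.65 and 6.61. Of these 4 enzyme genes, all had their highest value in adult. Among all 3508 aged/IgG control peaks present in all lists, adult was above aged/IgG control in 80.2%. Socs7 had its highest value in aged/anti-IL-17A/F, at 8.64, 9.02 and 12.0, and Birc5 in aged/IgG control, at 9.74, 10.8 and 10.8, with the aged values nearly equal. Il4ra had 11.4, 8.96 and 7.29 and Pim3 had 7.88, 4.21 and 6.07, both highest in adult.

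Genes with a peak in exactly 1 list numbered 6. Adam10, whose protease product sheds membrane proteins, Socs4, Pias1 and Ptpn6 were bound in adult alone, with strongest peaks of 2.50, 3.16, 2.91 and 3.21, Adam10 with 2 peaks and the others with 1. Stat4 and Cebpb had one in aged/anti-IL-17A/F alone, at 2.89 and 2.43. All 6 values were below the median of their list. In the strength classes of the adult values, 76.7% to 86.7% of all adult peaks were absent from aged/IgG control. From aged/anti-IL-17A/F, 59.1% to 73.1% were absent, so a peak of this strength in adult alone was not unusual. The share of all genes with a peak in exactly 1 list was not computed.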

How the data were processed

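Reads were trimmed (Trimmomatic 0.36), mapped to mm10, merged over 4 mice per condition and downsampled to equal depth by the authors, whose MACS2 threshold was q 0.01. Whether the inputs entered peak calling is not stated, and the 3 input samples were not analysed here. The deposited lists give the fold enrichment (a ratio), the −log10 of the p- and q-values, a score and the summit. The read depth behind a peak is unknown, and equal reads do not equalise the efficiency of immunoprecipitation.

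Peaks were assigned to the nearest curated RefSeq TSS of GRCm38.p6, whose chromosome lengths hold all peaks. Overlap meant at least 1 bp, and motifs were searched on both strands of whole peaks. All 10 promoter sequences are from RefSeq. Named genes were all members, other pathway genes with a peak in the top 10% or in exactly 1 list, and genes nearest to a peak within 50 kb. The values of 1 gene that this rule names are not reported here. Members and lists were chosen with earlier results of these data known. Python 3.11.15, pandas 2.3.3 and pysam 0.24.0 were used, and overlap, assignment and motif search were tested on simulated data, with bedtools 2.31.1 as a check. Alternatives were stricter q values, equal list lengths and other rules of assignment, overlap, motif and distance.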

Additional observations from a re-analysis of the deposited data

How the results depend on the processing

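Of 70 counts recomputed under other settings, 67 stayed within 1.5 times the reported one. With each list reduced to its strongest 4169 peaks, the adult member peaks fell from 29 to 19, and members with a peak numbered 8 in adult and 7 in either aged list: Il6 had no adult peak and Socs3 had one in adult alone. With up to 1 mismatch allowed, the κB consensus was found in 24 adult and 19 aged/anti-IL-17A/F member peaks, against 84.1% and 87.3% of all peaks, so that this looser motif separates little. At a −log10 q of at least 10 the members with a peak also numbered 8 in adult and 7 in either aged list, with Il6 lost in adult and Socs3 in aged/anti-IL-17A/F. With start sites of protein-coding genes only, Lif gained the peak 41.8 kb away and the numbers were 10 in adult, 8 in aged/IgG control, with 9 in aged/anti-IL-17A/F. Of 24 percentiles of the members' strongest peaks, 8 rose and 16 fell when ranked by −log10 q, by at most 16.5 points up (Stat3 in adult). No paired analysis was possible because each group has 1 pooled list. The lists have no replicates and no depth per peak, so a peak missing from a list is not shown to be absent from the cells.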
